A study of Homo sapiens with 25 samples.

Results

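Aminoacyl-tRNA synthetases are the enzymes that load amino acids onto transfer RNA. The transcripts of 36 genes of this family, histidyl-tRNA synthetase left out, were followed in cells of the human T-cell leukaemia line Jurkat while histidine in the medium was lowered. The 36 genes were taken from a fixed list of names and not by their values. They comprise 18 cytosolic synthetase genes (names ending in 1, with FARSA and FARSB), 15 mitochondrial synthetase genes (names ending in 2) and 3 scaffold proteins of the multisynthetase complex, AIMP1, AIMP2 and EEF1E1. All 36 were among the 36755 genes of the table, and all 36 passed the filter on low values (at least 10 normalized counts in at least 2 libraries) that left 22994 genes for testing. Total RNA was sequenced in 25 libraries. On day 3 the medium held 100% (2 libraries, replicates 1 and 3), 50%, 25%, 12.5% or 0% histidine (3 libraries each). The day 6 libraries held 100%, 50% or 25% (3 libraries each) or 12.5% (2 libraries, replicates 1 and 2). All groups are the same cell line, the labels name no genetic change, and 100% stands for the histidine of the unrestricted medium. No label says that the libraries of a group came from separate cultures, so p-values measure only the spread between libraries, which may be technical.

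A synthetase recognises its amino acid and the matching tRNAs, activates the amino acid with ATP and joins the pair. Human cells keep a cytosolic set and, for most amino acids, a separate nuclear-encoded set that is imported into mitochondria. GARS1 and KARS1 serve both compartments from the same gene, and mitochondria make glutaminyl-tRNA by an indirect route. Several cytosolic synthetases are held with AIMP1, AIMP2 and EEF1E1 in the multisynthetase complex. When an amino acid is scarce, uncharged tRNA activates the kinase GCN2, translation of the transcription factor ATF4 rises, and ATF4 is known to drive a number of cytosolic synthetase genes.

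The deposited values are counts normalized between libraries, and they are called normalized counts here. Their totals lay between 18.44 and 21.38 mega-counts (median 19.86), and since they are already scaled they do not give the sequencing depth. The 10 T-lineage markers were present in all libraries, CD28 at no more than 93.4 normalized counts. Their sum was 52099 to 56588 at 100% on day 3, rose stepwise to 78365 to 81731 at 0%, and was 53154 to 55460 at 100% and 63224 to 64445 at 12.5% on day 6. Epithelial and myeloid markers were low, with sums of 206 to 442 and 126 to 341 normalized counts. Matrix genes were not: COL1A1 had a median of 2429 over all libraries, above the T-lineage marker CD247 (2083). The B-cell markers moved with histidine: they summed to between 195 and 251 normalized counts at 100% and 50% on day 3 and to between 549 and 663 at 25%, 12.5% and 0%, and on day 6 to between 245 and 291 at 100% and 50% and to between 315 and 377 at 25% and 12.5%. The part of these markers in the results was not tested. Erythroid genes summed to between 191 and 5041, matrix genes to between 1719 and 12229, and 1 library (replicate 2 of 25% on day 6) held 18207 normalized counts of the heart muscle myosin MYH7. That library and replicate 3 of 100% and of 50% on day 6 stood apart on principal components. A fit with the library number of the labels (modulo 8) as a term ended 65 calls of members and added 2 over the 16 comparisons made. Leaving the 3 libraries out kept 554 of 576 member results (36 genes in 16 comparisons) on the same side of the threshold. Fewer cells of a type and less RNA per cell cannot be told apart in these samples.

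Members of the family differed from 100% at 25% histidine and below, and not at 50%. At 50%, none of the 36 members passed the test on day 3 (0% of all genes did, 0 of 22994) or on day 6 (0.00435% of all genes). At an unadjusted p under 0.05, 1 member and 1075 genes differed on day 3, and 2 members and 1098 genes on day 6. At 25% on day 3, 8 members were higher and 15 lower than at 100%, while 19.5% of all genes were called, 9.81% higher and 9.72% lower. Higher genes were thus 50.24% of all called genes, and 63.31% under total-sum scaling. At 12.5% the counts were 11 and 13, beside 14.2% and 12% of all genes (26.2% in all), and at 0% they were 12 and 10, beside 14.8% and 16.1% (31% in all). On day 6 at 25%, 6 members were higher and 12 lower (11% and 9.24% of all genes, 20.2% in all), and at 12.5%, 4 were higher and 14 lower (10.8% and 11.1% of all genes, 21.9% in all). A gene counted as called when its adjusted p (limma, Benjamini-Hochberg over all 22994 genes) was under 0.05. Differences are log2 differences of values plus 1, restricted minus 100% of the same day. All comparisons of a day share their 100% libraries. Libraries at 25% or below are called restricted from here on. Groups of this size often do not overlap: all restricted libraries lay above all those at 100% for 21.8%, 23.7% and 24.6% of all genes at 25%, 12.5% and 0% on day 3 and below them for 22.3%, 24.8% and 25.9%. On day 6 these shares were 16.5% and 24.4% above and 16.5% and 25.1% below at 25% and 12.5%.

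Nothing in the labels marks the library number as a batch. It runs in sequence through the groups, so its term (modulo 8) overlaps with them in part and leaves fewer degrees of freedom. With it, calls over all genes on day 3 went from 4490 to 2350 at 25%, 6018 to 5546 at 12.5% and 7123 to 4725 at 0%. Why calls ended was not tested, and lower power may be part of it. With the library number in the fit, a number of the member calls against 100% did not pass. At 25% on day 3 they were those of FARSB, GARS1, VARS1, AARS2, FARS2, IARS2, SARS2, TARS2, YARS2 and AIMP1, at 12.5% those of EPRS1, NARS1, AARS2, IARS2, YARS2 and EEF1E1, and at 0% those of AARS1, EPRS1, FARSB, LARS1, VARS1, FARS2, IARS2 and PARS2. On day 6 they were those of RARS1, TARS2, LARS2 and AIMP2 at 25% and of LARS1, TARS1 and NARS2 at 12.5%.

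**Figure D1:**
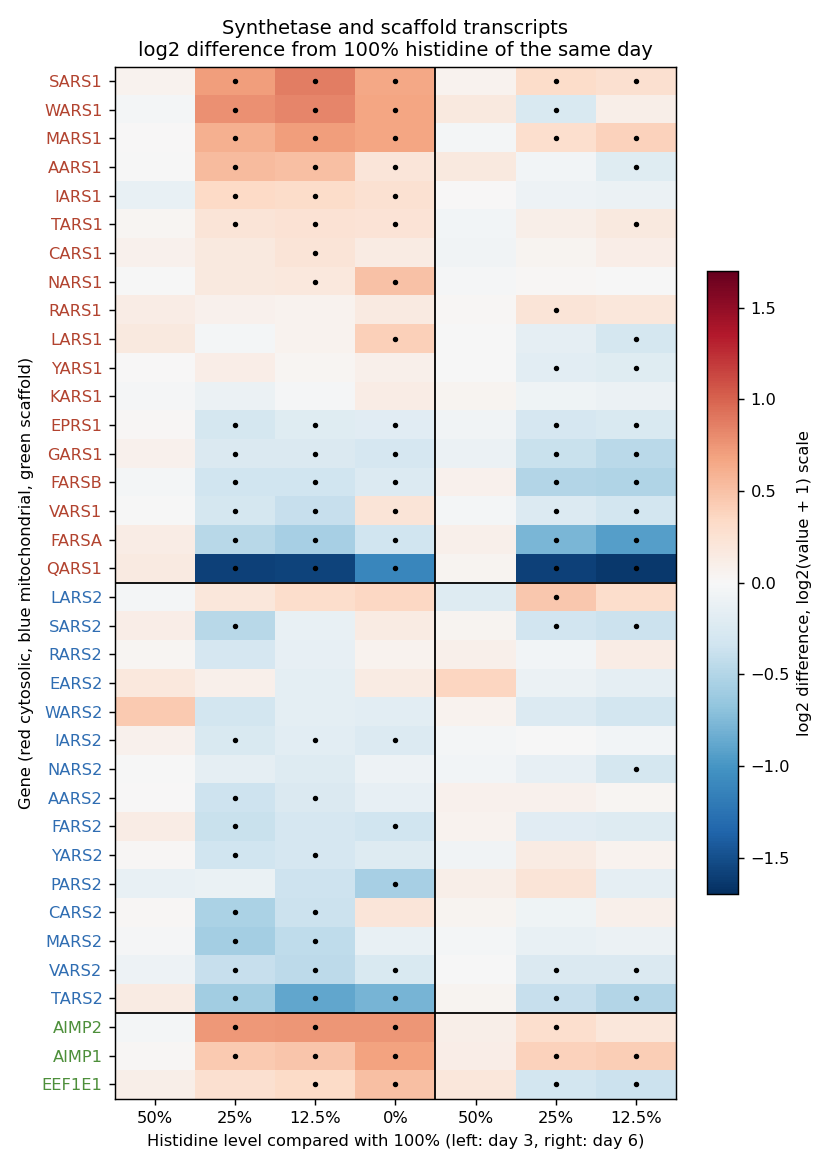
Each cell shows the log2 difference of a gene (row) between a histidine level (column) and 100% of the same day, and a dot marks an adjusted p under 0.05 in limma. The columns at 50% hold no dot on either day, QARS1 is the deepest blue in every column from 25% downwards, and the mitochondrial block holds dots in blue cells only, apart from LARS2 at 25% on day 6.

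The cytosolic synthetases split. In the 5 comparisons of 25%, 12.5% or 0% with 100%, MARS1 and SARS1 were higher in all 5, while EPRS1, FARSA, FARSB, GARS1 and QARS1 were lower in all 5. KARS1, the lysyl enzyme, passed in none, with log2 differences from -0.10 to 0.13. AARS1, LARS1, VARS1 and WARS1 passed in opposite directions in different comparisons, and the other 6 genes (CARS1, IARS1, NARS1, RARS1, TARS1 and YARS1) passed in 1 to 4 comparisons, always in the same direction. YARS1 was the only one of those 6 that was lower. How many of all genes were called the same way in all 5 comparisons was not computed, here or for the mitochondrial genes below. The median of the 18 genes was 0.09, 0.06 and 0.18 on day 3 (25%, 12.5% and 0%) and -0.12 and -0.15 on day 6 (25% and 12.5%). The median of all genes stayed between -0.04 and 0.00 in these comparisons.

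QARS1, the glutaminyl-tRNA synthetase, had the largest difference of the family in every one of the 5 comparisons. On day 3 its libraries held 4827 and 5480.3 normalized counts at 100% and 5894, 5798 and 5463 at 50%. They held 1846, 1595 and 1681 at 25%, 1882, 1744 and 1583 at 12.5% and 2392, 2222 and 2520.4 at 0%. On day 6 they held 4824, 5003 and 4834 at 100%, 5089, 5378 and 4739 at 50%, 1565, 1650.1 and 1677 at 25% and 1589 and 1553 at 12.5%. Every library at 25% or below held less than every library at 50% or 100%, on both days. The libraries at 0% lay between these levels, above all libraries at 25% and 12.5%. The log2 difference from 100% was -1.59 at 25% (3.02-fold lower, SE 0.08, limma adjusted p = 4.21e-14), -1.57 at 12.5% and -1.11 at 0% on day 3. The day 6 difference was -1.58 at 25% and -1.64 at 12.5% (3.11-fold lower, SE 0.08, limma adjusted p = 3.32e-14). Each of the 5 calls held in every alternative that was run. From 12.5% to 0% on day 3, QARS1 rose by 0.46 (SE 0.07, limma adjusted p = 2.19e-05).

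FARSA and FARSB encode the catalytic and the partner subunit of the cytosolic phenylalanyl-tRNA synthetase, and both fell. FARSA held 5712 and 6917 normalized counts at 100% on day 3 and 7406, 6517 and 6609 at 50%. It held 4692, 4326 and 4538 at 25%, 4212, 4278 and 4277 at 12.5% and 5277, 4835 and 4828 at 0%. By day 6 the values were 6772, 5942 and 6168 at 100%, 6255, 7154 and 6607 at 50%, 3974, 3724 and 3343 at 25% and 3365 and 3205 at 12.5%. All FARSA libraries at 25% or below lay under all libraries at 100% of their day, with the lowest levels on day 6. The FARSA differences were -0.48, -0.56 and -0.34 on day 3 (25%, 12.5% and 0%) and -0.78 and -0.94 on day 6 (25% and 12.5%, SE 0.07 to 0.08, limma adjusted p = 2.96e-09 for the last). The call at 0% was lost without replicate 3 of 100% on day 3 (-0.20, adjusted p = 0.149).

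FARSB held 1733 and 1966 normalized counts at 100% on day 3, 1926, 1718 and 1788 at 50%, 1511, 1506 and 1376 at 25%, 1439, 1559.5 and 1384 at 12.5% and 1610.1, 1547 and 1556 at 0%. Day 6 gave 1603, 1733 and 1674 at 100%, 1708, 1879 and 1680.0 at 50%, 1269, 1097 and 1172 at 25% and 1142 and 1194 at 12.5%. The restricted FARSB libraries did not overlap those at 100% on either day, and the gap was wider on day 6. Its differences were -0.34, -0.34 and -0.23 on day 3 and -0.50 and -0.52 on day 6 (limma adjusted p = 1.01e-05 and 2.96e-05). The 2 day 6 calls held in every alternative. The day 3 calls were lost without replicate 3 of 100%, when the differences were -0.24 (adjusted p = 0.126), -0.25 (0.0912) and -0.14 (0.370). The call at 0% was also lost without replicate 2 or 3 of 0% (adjusted p = 0.0743 and 0.0676), and the calls at 25% and 0% with the library number in the fit (0.273 and 0.366).

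GARS1, the glycyl enzyme, and EPRS1, which charges both glutamate and proline, fell as well. GARS1 differed by -0.24, -0.25 and -0.29 on day 3 and by -0.37 and -0.46 on day 6. EPRS1 differed by -0.30, -0.20 and -0.19 on day 3 and by -0.29 and -0.26 on day 6. Some of these calls depended on single libraries. Without replicate 3 of 100% on day 3 the adjusted p of GARS1 was 0.0957 at 25% and 0.0664 at 12.5%, and that of EPRS1 was 0.0526 at 0%. Without replicate 1 of 100% on day 3, EPRS1 had 0.0707 at 12.5% and 0.0751 at 0%, and without replicate 1 of 12.5% on day 6 it had 0.0588.

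**Figure D2:**
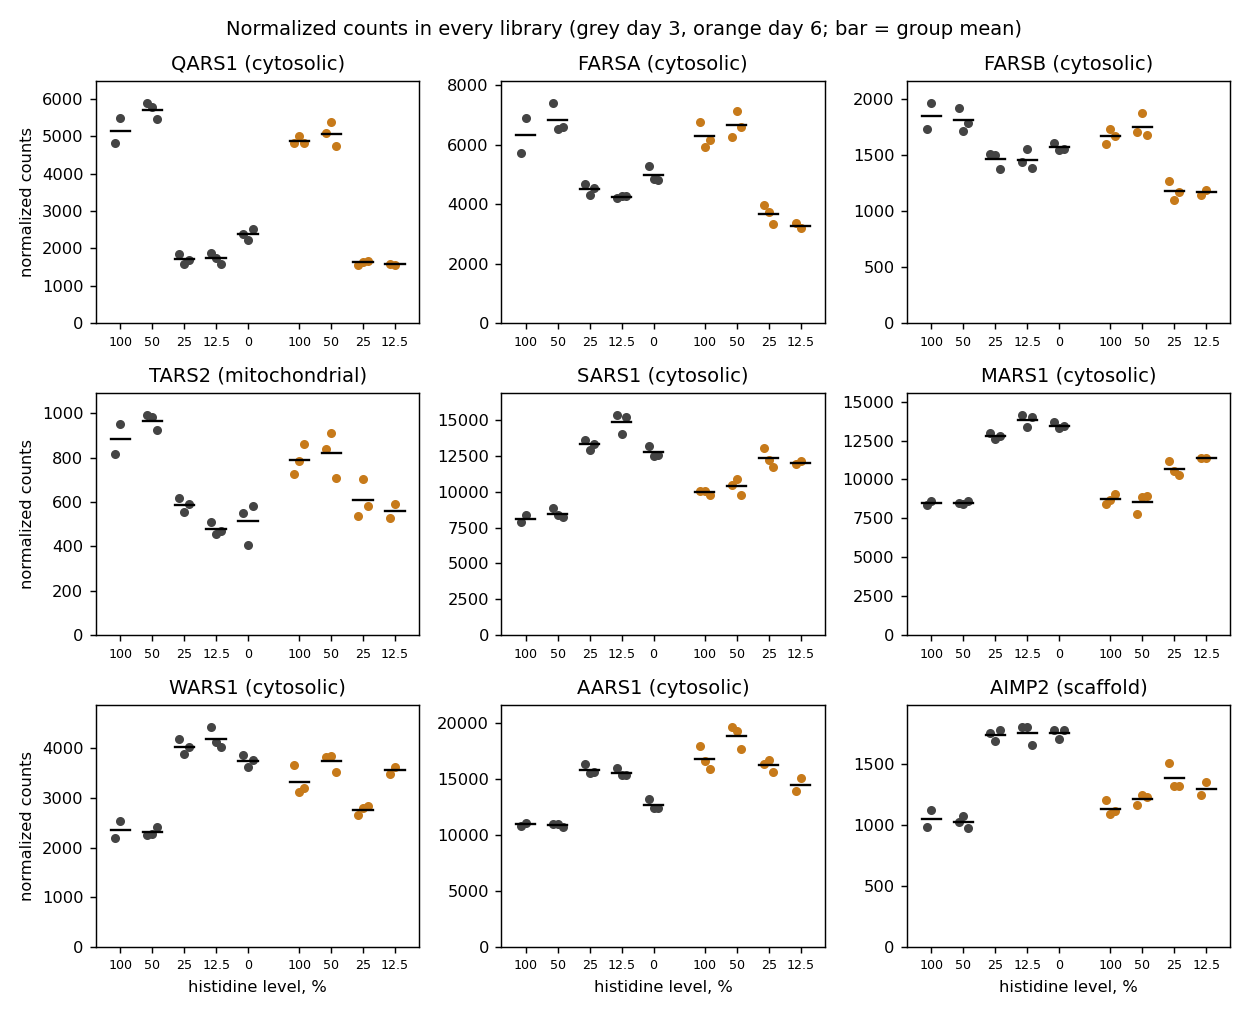
Normalized counts (vertical axes from 0) of 9 members in each library, by histidine level, with day 3 in grey, day 6 in orange and a bar at each group mean. QARS1, FARSA, FARSB and TARS2 drop between 50% and 25%, SARS1 and MARS1 are higher at 25% and below on both days, and WARS1 and AARS1 start higher at 100% on day 6 than on day 3. AARS1 was added to the plot after its values were seen.

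The cytosolic genes of the seryl (SARS1), methionyl (MARS1) and tryptophanyl (WARS1) enzymes rose by more than 0.5 on day 3 at every level from 25% down. SARS1 held 7884 and 8351 normalized counts at 100% on day 3 and 8842, 8391 and 8207 at 50%. It held 13617, 12941 and 13349.8 at 25%, 15377, 14011 and 15208 at 12.5% and 13216, 12476 and 12543 at 0%. On day 6 the libraries held 10025, 10048 and 9779 at 100%, 10468, 10891 and 9748 at 50%, 13079, 12248 and 11716 at 25% and 11932 and 12154 at 12.5%. The day 6 libraries started from a higher level at 100% and had lower means under restriction than those of day 3, and on both days the libraries at 25% and below did not overlap those at 100%. SARS1 rose by 0.71, 0.87 (1.83-fold) and 0.65 on day 3 (limma adjusted p = 5.48e-12 at 12.5%) and by 0.31 and 0.28 on day 6 (adjusted p = 4.75e-05 and 0.000616). All 5 calls held in every alternative.

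MARS1 held 8327 and 8588 normalized counts at 100% on day 3 and 8486, 8443 and 8584 at 50%. It held 12963, 12616 and 12815 at 25%, 14158, 13372 and 13985 at 12.5% and 13675, 13308 and 13423 at 0%. On day 6 it held 8442, 8684 and 9048 at 100%, 7793, 8895 and 8926 at 50%, 11182, 10529 and 10306 at 25% and 11403 and 11385 at 12.5%. The libraries at 100% and 50% overlapped between the days, and all libraries below 50% lay above them. MARS1 rose by 0.60, 0.71 and 0.67 on day 3 (limma adjusted p = 1.22e-10 at 12.5%) and by 0.29 and 0.39 on day 6 (adjusted p = 5.59e-05 and 4.90e-06), and these calls held in every alternative. The gene span of MARS1, introns included, shares 13370 bases with that of ARHGAP9 and 982 bases with that of DDIT3, both on the opposite strand. ARHGAP9 differed by 0.30, 0.30 and -0.70 on day 3 and by 0.31 and 0.09 on day 6, and passed only at 0% (limma adjusted p = 0.000978). DDIT3, the gene of the stress factor CHOP, was higher at 12.5% and 0% on day 3 (0.72 and 0.73) and moved the other way from MARS1 on day 6 (-0.74 and -1.27). The libraries were strand-specific per the labels, but whether strand was used in counting is not given in the sources used here.

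WARS1 held 2184 and 2541 normalized counts at 100% on day 3 and 2246, 2279 and 2407 at 50%. It held 4200.2, 3887 and 4028 at 25%, 4441, 4127 and 4033 at 12.5% and 3859.7, 3629.7 and 3772 at 0%. The day 6 libraries held 3657, 3115 and 3209 at 100%, 3834, 3852 and 3526 at 50%, 2666, 2796 and 2833 at 25% and 3492 and 3633 at 12.5%. The restricted libraries lay above all others on day 3, while on day 6 those at 25% lay below all at 100% and those at 12.5% fell within the range of 100%. WARS1 rose by 0.78, 0.83 and 0.67 on day 3 (limma adjusted p = 1.19e-08, 2.07e-09 and 4.93e-08). On day 6 it fell at 25% (-0.26, adjusted p = 0.00442, but -0.19 and 0.0537 without replicate 1 of 100%) and had a difference of 0.10 at 12.5% (adjusted p = 0.388). WARS1 overlaps WDR25 by 388 bases on the opposite strand, and WDR25 differed by 0.48, 0.49 and 0.47 in the same 3 comparisons of day 3 (limma adjusted p = 0.0191, 0.0129 and 0.0153). Its part in the WARS1 values was not tested.

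The other cytosolic genes that rose did so by smaller amounts. AARS1, the alanyl enzyme, was higher by 0.53, 0.51 and 0.21 on day 3 and lower at 12.5% on day 6 (-0.21). The AARS1 call at 0% was lost with the library number in the fit (limma adjusted p = 0.0644). IARS1, the isoleucyl enzyme, was higher by 0.33, 0.31 and 0.25 on day 3, with -0.09 and -0.09 on day 6, which did not pass. TARS1, the threonyl enzyme, was higher in 4 of the 5 comparisons, by 0.16 to 0.24. The AARS1 call on day 6 was lost without replicate 1 of 12.5% (-0.15, limma adjusted p = 0.166). The TARS1 call at 25% on day 3 was lost without replicate 3 of 100% (adjusted p = 0.0561), and its call at 12.5% on day 6 without replicate 1 or 3 of 100%, or without replicate 2 of 12.5% (adjusted p = 0.122, 0.0768 and 0.420). CARS1, the cysteinyl enzyme, passed only at 12.5% on day 3 (0.23, adjusted p = 0.0115, but 0.167 without replicate 1 of 100% and 0.0670 without replicate 1 of 12.5%). RARS1, the arginyl enzyme, passed only at 25% on day 6 (0.22, adjusted p = 0.0378) and lost that call in 10 of 16 alternatives, 4 of them the removal of a single library (replicate 1 or 3 of 100%, and replicate 1 or 2 of 25%, with adjusted p = 0.103, 0.221, 0.0873 and 0.164). YARS1, the tyrosyl enzyme, passed on day 6 alone and was lower (-0.19 and -0.20, and without replicate 1 of 12.5%, adjusted p = 0.0988).

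Between 12.5% and 0% histidine on day 3, 10 members changed, 8 upwards and 2 downwards, while 8.5% of all genes were called higher and 12.5% lower. VARS1, the valyl enzyme, had 4479.6 and 5445 normalized counts at 100%, 3961, 4072 and 4033 at 25%, 3895, 3739 and 3631 at 12.5% and 6064, 5734 and 5512 at 0%. Its libraries at 25% and 12.5% lay below those at 100% and its libraries at 0% above them. The rise from 12.5% to 0% was 0.62 (SE 0.06, limma adjusted p = 1.54e-08) and held in every alternative. Against 100%, VARS1 was lower at 25% and 12.5% (-0.30 and -0.40, the first with an adjusted p of 0.213 without replicate 3 of 100%). Its difference at 0% was 0.22 (adjusted p = 0.0139), and it was 0.08 (0.494) without replicate 1 of 100% and 0.19 (0.0649) without replicate 1 of 0%. The other genes higher at 0% than at 12.5% were CARS2 (0.57), QARS1 (0.46), LARS1 (0.35), NARS1 (0.31), MARS2 (0.30), FARSA (0.23) and VARS2 (0.19). AARS1 (-0.29) and SARS1 (-0.22) were lower. Of the 10 calls, those of AARS1, NARS1, QARS1, VARS1 and CARS2 held in every alternative, and those of LARS1 and SARS1 in all but the fit with the library number, which also ended those of FARSA, MARS2 and VARS2 (adjusted p for LARS1 and SARS1 = 0.0901 and 0.128). Without replicate 1 of 12.5% the adjusted p was 0.0763 for FARSA, 0.0753 for MARS2 and 0.0742 for VARS2. It was 0.0520 for MARS2 without replicate 2 of 0%. FARSA was also lost without replicate 2 or 3 of 12.5%, or without replicate 1 of 0% (0.0608, 0.0620 and 0.133), and VARS2 without replicate 3 of 12.5% or replicate 1 or 2 of 0% (0.147, 0.154 and 0.124).

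NARS1 and LARS1, the asparaginyl and leucyl enzymes, reached their highest levels without histidine. NARS1 held 4287 and 4012 normalized counts at 100% and 5975, 5797 and 5754 at 0%, a rise of 0.49 (limma adjusted p = 6.29e-07) that held in every alternative. LARS1 held 3823 and 3471 and 4928, 4766 and 4835, a rise of 0.41 (adjusted p = 0.00174), which was lost with a term for the library number (adjusted p = 0.0745). In neither gene did the libraries at 0% overlap those at 100%. NARS1 was also called at 12.5% (0.18, adjusted p = 0.0321), a call lost without replicate 3 of 100% (0.270) or replicate 1 or 2 of 12.5% (0.114 and 0.0715). LARS1 was lower at 12.5% on day 6 (-0.30), a call lost without replicate 1 or 2 of 100% (adjusted p = 0.0705 and 0.133) or either library at 12.5% (0.196 and 0.0872).

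Promoter sequences were compared because several cytosolic genes moved upwards together and ATF4 with a C/EBP partner is known to bind a composite element whose core can be written TGATGNAA. RefSeq windows (GRCh38.p14, 250 bases before to 50 after the gene start) were matched for 31 of the 36 genes, the other 5 being AARS2, LARS1, VARS1, VARS2 and YARS1. Some members have more than 1 window (2 each for SARS1 and WARS1, 3 for AIMP1), and only the first listed was counted. The share over all windows includes every window of a gene, so it is not a like measure. The motif was searched on both strands, its reverse complement being TTNCATCA. It lay in 3.62% of all 35116 windows of this length, in 6 of 15 cytosolic windows, in 1 of 13 mitochondrial windows and in 0 of 3 scaffold windows. Of the 10 matched members called higher at 0% on day 3, 5 held it, against 0 of 9 called lower and 2 of 12 not called. At 12.5% on day 6, it lay in 2 of 4 called higher, in 1 of 10 called lower (AARS1) and in 4 of 17 not called. The matches of the 5 genes called higher at 0% on day 3 are shown on the strand of the gene, with the motif in capitals.
AARS1 (chr16:70289670-70289709, minus strand): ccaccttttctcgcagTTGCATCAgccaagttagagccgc
IARS1 (chr9:92293687-92293726, minus strand): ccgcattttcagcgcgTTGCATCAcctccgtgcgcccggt
MARS1 (chr12:57488048-57488087, plus strand): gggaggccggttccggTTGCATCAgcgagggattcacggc
NARS1 (chr18:57621807-57621838, minus strand): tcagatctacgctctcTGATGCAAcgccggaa
TARS1 (chr5:33440951-33440990, plus strand): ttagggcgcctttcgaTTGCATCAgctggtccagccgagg
The 8 bases are TTGCATCA in AARS1, IARS1, MARS1 and TARS1 and their reverse complement, TGATGCAA, in NARS1. In MARS1 the motif starts 4 bases before the RefSeq gene start, in IARS1 13 before and in AARS1 187 before. The remaining matches were in CARS1 and YARS2. SARS1 and WARS1, which rose by more on day 3 than AARS1, IARS1, NARS1 and TARS1, hold no match in the 1 window counted for each, and neither does QARS1. The other window of SARS1 and of WARS1 was not counted. A match describes the letters and does not show that a factor binds.

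The scaffold genes were higher on day 3: 2 of 3 passed at 25% and 3 of 3 at 12.5% and 0%, with medians of 0.44, 0.47 and 0.68. Of all genes, 9.81%, 14.2% and 14.8% were called higher at these levels. AIMP2, which holds the complex together, had 979 and 1119 normalized counts at 100% on day 3 and 1024, 1073 and 976 at 50%. It had 1752, 1690.2 and 1779 at 25%, 1808, 1804 and 1657 at 12.5% and 1782, 1708 and 1781 at 0%. By day 6 the values were 1202, 1087 and 1112 at 100%, 1163, 1245 and 1229 at 50%, 1509, 1319 and 1322 at 25% and 1244 and 1352 at 12.5%. The step on day 3 lay between 50% and 25%, with flat levels below it. AIMP2 rose by 0.73, 0.74 and 0.75 on day 3 (limma adjusted p = 1.42e-07, 6.62e-08 and 3.77e-08), which held in every alternative. On day 6 it rose by 0.29 at 25% (adjusted p = 0.00487, 0.108 with the library number in the fit) and differed by 0.19 at 12.5% (adjusted p = 0.0893). AIMP2 overlaps EIF2AK1, the gene of the eIF2 alpha kinase HRI, on the opposite strand, and EIF2AK1 was lower on day 3 (-0.29, -0.18 and -0.23).

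AIMP1, which is also cut to give a secreted cytokine, had 1425 and 1361 normalized counts at 100% on day 3, 1486, 1325 and 1445 at 50%, 1897, 1919 and 1855 at 25%, 1870.5, 1977 and 1962 at 12.5% and 2078, 2198 and 2455 at 0%. Day 6 gave 1417, 1349 and 1183 at 100%, 1476, 1476 and 1314 at 50%, 1904, 1558 and 1722 at 25% and 1740.4 and 1781 at 12.5%. Its restricted libraries did not overlap those at 100% on either day. AIMP1 rose by 0.44, 0.47 and 0.68 on day 3 and by 0.39 and 0.42 on day 6 (limma adjusted p = 0.000675 and 0.000843). These calls held in every alternative, except that at 25% on day 3 with the library number in the fit (0.38, adjusted p = 0.0522).

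EEF1E1, also known as AIMP3, had 926 and 854 normalized counts at 100% on day 3, 1007, 869.6 and 984 at 50%, 1138, 997 and 1096 at 25%, 1120.2, 1074 and 1161 at 12.5% and 1374, 1214 and 1232 at 0%. On day 6 the libraries held 1116, 1199.8 and 1105 at 100%, 1282, 1302 and 1326 at 50%, 1024, 1045 and 732 at 25% and 839.7 and 933 at 12.5%. The libraries at 25% and below lay above 100% on day 3 and below it on day 6, while those at 50% on day 6 lay above all at 100%. EEF1E1 rose by 0.51 at 0% on day 3 (limma adjusted p = 0.000747), a call that held in every alternative, and by 0.33 at 12.5%, which was lost in 7 of 15 alternatives (without replicate 1 or 3 of 100%, adjusted p = 0.0615 and 0.214, and without replicate 1 or 3 of 12.5%, 0.0628 and 0.0872). On day 6 it fell by 0.31 at 25% and 0.36 at 12.5%. Without replicate 3 of 25%, which held the lowest value, the difference at 25% was -0.14 (adjusted p = 0.304), and without replicate 1, 2 or 3 of 100% it did not pass either (0.0585, 0.116 and 0.0535). The fall at 12.5% was lost without replicate 2 of 100% (0.0707) or replicate 1 of 12.5% (0.213). A read-through transcript with BLOC1S5 runs over EEF1E1 on the same strand, so its counts are uncertain.

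The enzymes of the multisynthetase complex were called in both directions. This grouping was made after the values were seen, and its counts stand beside the shares of all genes already given (9.81% higher and 9.72% lower at 25% on day 3, 14.8% and 16.1% at 0%, and 10.8% and 11.1% at 12.5% on day 6). Of the 7 cytosolic members in the complex (EPRS1, IARS1, KARS1, LARS1, MARS1, QARS1 and RARS1), 2 were higher and 2 lower at 25% on day 3, and 3 and 2 at 0%. Of the 11 outside it, 4 were higher and 4 lower at 25%, and 6 and 3 at 0%. On day 6 at 12.5% the counts were 1 higher and 3 lower inside, and 2 higher and 6 lower outside. The largest rise inside was MARS1 and the largest fall QARS1 in each of the 5 comparisons. By class of catalytic domain, at 0% on day 3, 5 of 10 class I genes were higher and 2 lower, and 4 of 8 class II genes were higher and 3 lower.

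The mitochondrial synthetases that passed on day 3 were all lower. At 25%, 9 of 15 were lower and 0 higher, at 12.5% 7 were lower and 0 higher, and at 0% 5 were lower and 0 higher, beside the shares of all genes given above. Their median log2 difference was -0.34, -0.24 and -0.14. On day 6 the counts were 1 higher and 3 lower at 25% (median -0.11) and 0 higher and 4 lower at 12.5% (median -0.15). TARS2 and VARS2 were lower in all 5 comparisons, EARS2, RARS2 and WARS2 passed in none, and LARS2 was the only gene called higher. Of the 9 at 25% on day 3, the 3 of CARS2, MARS2 and VARS2 held in every alternative, of the 7 at 12.5% those of MARS2, TARS2 and VARS2, and of the 5 at 0% that of TARS2 alone. For the cytosolic genes 8 of 12, 9 of 14 and 8 of 14 calls did so. Whichever library was left out, fewer mitochondrial genes were called at 12.5% on day 3 and at both day 6 levels than with all libraries. Without replicate 3 of 100% on day 3 the number called was 4 at 25% and 2 at 0%, and without replicate 3 of 12.5% it was 3 at 12.5%. On day 6 it was 1 at 25% without replicate 2 of 100% and 0 at 12.5% without replicate 1 of 12.5%. Their levels were also lower: per kilobase of their longest coding transcript (GENCODE 29), the day 3 levels at 100% were 94.8 to 1080.0 normalized counts (median 331) for the mitochondrial genes and 549 to 4313 (median 1779) for the cytosolic genes.

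TARS2, the mitochondrial threonyl enzyme, had the largest fall of the mitochondrial set in each of the 5 comparisons. It held 815 and 954 normalized counts at 100% on day 3 and 993, 984 and 925 at 50%. It held 616, 555 and 590.1 at 25%, 508, 454 and 470.0 at 12.5% and 552, 408 and 582 at 0%. On day 6 it held 727, 785 and 863 at 100%, 841, 909.5 and 709.8 at 50%, 536, 703 and 583 at 25% and 527 and 589.9 at 12.5%. The restricted libraries lay below those at 100% on both days, closely so on day 6. TARS2 fell by 0.59, 0.88 and 0.79 on day 3 (SE 0.14, limma adjusted p = 0.00251, 1.53e-05 and 4.60e-05) and by 0.39 and 0.50 on day 6 (adjusted p = 0.0245 and 0.00833). The calls at 12.5% and 0% on day 3 held in every alternative. The call at 25% on day 3 was lost without replicate 3 of 100% (adjusted p = 0.0759) and with the library number in the fit (0.0716). On day 6, the call at 12.5% was lost without replicate 1 of 12.5% (0.120). The call at 25% was lost without replicate 2 or 3 of 100% (0.0568 and 0.120), and also without replicate 1 or 3 of 25% (0.131 and 0.0723).

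PARS2, the mitochondrial prolyl enzyme, has low values. It held 285 and 321 normalized counts at 100% on day 3, 301, 273 and 260.4 at 50%, 241, 283 and 322 at 25%, 222, 240.3 and 250.4 at 12.5% and 223, 183 and 211 at 0%. The day 6 libraries held 296, 333 and 340.3 at 100%, 354, 354 and 332 at 50%, 388, 369 and 370.1 at 25% and 279.8 and 299 at 12.5%. All libraries at 0% lay below all at 100%, while on day 6 those at 25% lay above. PARS2 fell by 0.56 at 0% (SE 0.14, limma adjusted p = 0.00197), a call lost with the library number in the fit (-0.34, adjusted p = 0.229), and passed in no other comparison with 100%. VARS2, the mitochondrial valyl enzyme, fell by 0.40 at 25% and 0.44 at 12.5% on day 3, which held in every alternative. It overlaps GTF2H4 on the same strand, and GTF2H4 passed in none of the 5 comparisons. LARS2, the mitochondrial leucyl enzyme, was higher at 25% on day 6 (0.46, adjusted p = 0.0464). That call was lost in 11 of 16 alternatives, among them the removal of replicate 2 or 3 of 100% (0.123 and 0.155) and of replicate 1 or 2 of 25% (0.160 and 0.182).

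The other mitochondrial genes passed mainly at 25% and 12.5% on day 3. MARS2, the methionyl enzyme, fell by 0.57 and 0.43 (limma adjusted p = 7.16e-05 and 0.00119), which held in every alternative, and had -0.13 at 0% (0.342). An annotated transcript, AC011997.1, shares 3019 bases with MARS2 on the same strand, so the MARS2 counts are uncertain. CARS2, the cysteinyl enzyme, fell by 0.54 at 25% and 0.36 at 12.5%, and stood at 0.20 at 0% (adjusted p = 0.179). Its libraries held 888 and 976 normalized counts at 100%, 641, 585 and 698 at 25%, 785, 705 and 685 at 12.5% and 1184, 998 and 1040.1 at 0%, so that the lowest values lay at the intermediate levels. The CARS2 call at 12.5% was lost without replicate 3 of 100% (0.152) or replicate 3 of 12.5% (0.0541). CARS2 overlaps ING1, which passed as higher at 12.5% (0.29, adjusted p = 0.0350). The alanyl (AARS2), tyrosyl (YARS2) and isoleucyl (IARS2) enzymes were lower at 25% and 12.5%, by 0.35 and 0.24, 0.34 and 0.29, and 0.26 and 0.18, and IARS2 also at 0% (-0.23). At 12.5% these 3 calls were lost in 6, 8 and 8 of 15 alternatives: for AARS2 without replicate 1 of 100%, or without replicate 2 or 3 of 12.5% (adjusted p = 0.0520 to 0.198), for YARS2 without replicate 1 or 3 of 100%, or without replicate 1, 2 or 3 of 12.5% (adjusted p = 0.0510 to 0.210) and for IARS2 without replicate 1 or 3 of 100%, or without replicate 1 or 3 of 12.5% (adjusted p = 0.0602 to 0.235), among others. At 25% the YARS2 call was lost without replicate 1 or 3 of 100% (adjusted p = 0.0502 to 0.143) and the IARS2 call without replicate 3 of 100% (adjusted p = 0.0748), which also ended that of IARS2 at 0% (0.0836). FARS2, the phenylalanyl enzyme, was lower at 25% and 0% (-0.38 and -0.34), each lost in 9 of 15 alternatives, among them those without replicate 1 or 3 of 100%, or without replicate 2 or 3 of 25% (adjusted p = 0.0769 to 0.15) at 25% and without replicate 1 or 3 of 100%, or without replicate 2 or 3 of 0% (adjusted p = 0.0608 to 0.160) at 0%. SARS2, the seryl enzyme, was lower at 25% on day 3 (-0.47) and on day 6 (-0.33 and -0.36). Its day 6 calls were lost without replicate 1, 2 or 3 of 100%, or without replicate 1 or 3 of 25% (adjusted p = 0.0610 to 0.111) at 25% and without replicate 1, 2 or 3 of 100%, or without replicate 1 of 12.5% (adjusted p = 0.0574 to 0.326) at 12.5%. NARS2, the asparaginyl enzyme, passed only at 12.5% on day 6 (-0.29, adjusted p = 0.0203), lost in 5 of 15 alternatives, among them those without replicate 2 of 100%, or without replicate 1 or 2 of 12.5% (adjusted p = 0.108 to 0.133). The calls of VARS2 were lost at 0% without replicate 3 of 100% (adjusted p = 0.125) and at 12.5% on day 6 without replicate 1 of 100%, or without replicate 1 or 2 of 12.5% (adjusted p = 0.0510 to 0.0918). EARS2, RARS2 and WARS2, of the glutamyl, arginyl and tryptophanyl enzymes, had differences between -0.31 and 0.13. WARS2, the lowest of the family per kilobase, was lower at 25% than at 50% on day 3 (-0.76, limma adjusted p = 0.000221). Its level at 50% was itself 0.45 above 100%, the largest rise of the family at 50% though not called. Against 100% its difference at 25% was -0.31, also not called.

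The cytosolic and mitochondrial sets were set against each other in each library, as the mean log2 value of a class minus its mean at 100% of that day. These are descriptions of the chosen genes, and no test was made over them. The cytosolic mean exceeded the mitochondrial one by 0.27 to 0.34 in the libraries at 25% on day 3, by 0.28 to 0.35 at 12.5% and by 0.20 to 0.33 at 0%. In the libraries at 50% on day 3 no difference was below -0.07 and none was above 0. On day 6 the sign of these means was the opposite, -0.17 to -0.10 at 25% and -0.13 to -0.06 at 12.5%. The class medians were close on day 6, -0.119 (cytosolic) and -0.105 (mitochondrial) at 25% and -0.154 and -0.148 at 12.5%. The cytosolic mean includes QARS1, which has no mitochondrial partner, on both days (-1.59, -1.57 and -1.11 on day 3, -1.58 and -1.64 on day 6). Its part in the sign of these means was not tested. On day 3 the cytosolic means at 25% and 12.5% stayed between -0.02 and 0.07, with rising and falling genes offsetting each other. At 0% the cytosolic means were 0.09 to 0.14 and the mitochondrial ones -0.20 to -0.06.

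**Figure D3:**
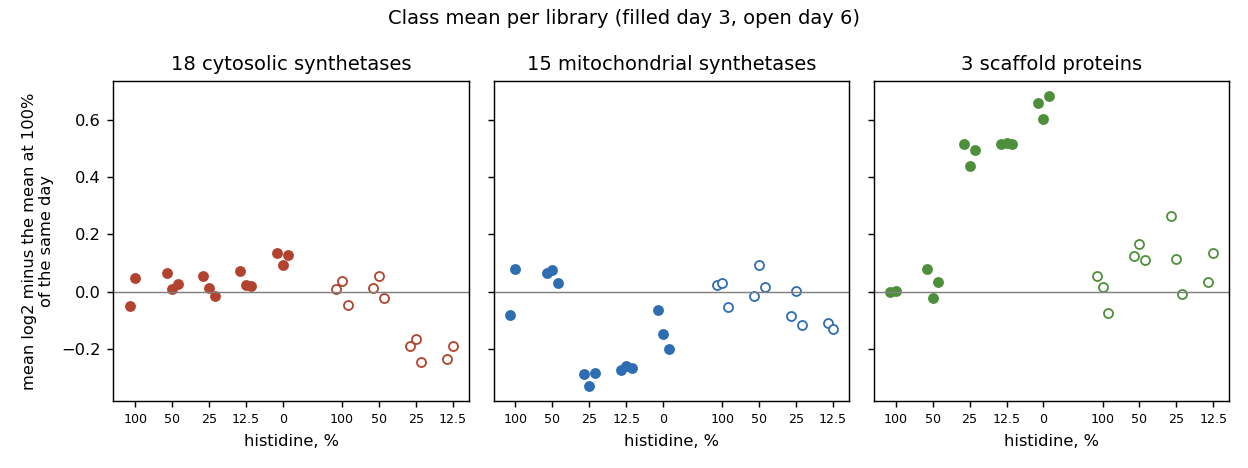
Mean log2 value of each class in each library minus the mean at 100% of the same day, by histidine level. On day 3 the mitochondrial means drop to -0.33 to -0.28 at 25% while the cytosolic means stay near 0 and the scaffold means rise to 0.44 to 0.51, and on day 6 the cytosolic means are the lowest of the classes at 25%.

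Partner genes for the same amino acid were compared gene by gene. There are 15 such pairs, FARS2 being counted with FARSA and with FARSB, EARS2 with EPRS1, and PARS2 left without a partner. The cytosolic difference was above the mitochondrial one in 12, 11 and 13 pairs on day 3 (25%, 12.5% and 0%) and in 7 and 7 on day 6. The cytosolic gene was called higher and its partner lower in 5, 5 and 3 pairs on day 3 and in 1 and 2 on day 6. At 25% on day 3 these 5 were AARS1 with AARS2 (0.53 and -0.35), IARS1 with IARS2 (0.33 and -0.26), MARS1 with MARS2 (0.60 and -0.57), SARS1 with SARS2 (0.71 and -0.47) and TARS1 with TARS2 (0.22 and -0.59). Those of IARS2, SARS2 and TARS2 did not pass without replicate 3 of 100% on day 3 (limma adjusted p = 0.0748, 0.228 and 0.0759), nor TARS1 (0.0561). SARS2 also did not pass without replicate 2 of 25% (0.0517). SARS2 runs within a read-through gene on the same strand, so its counts are uncertain. In the phenylalanyl and valyl pairs both genes were called lower at 25% on day 3. No pair had a cytosolic gene called lower and its partner higher in any of the 5 comparisons.

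**Figure D4:**
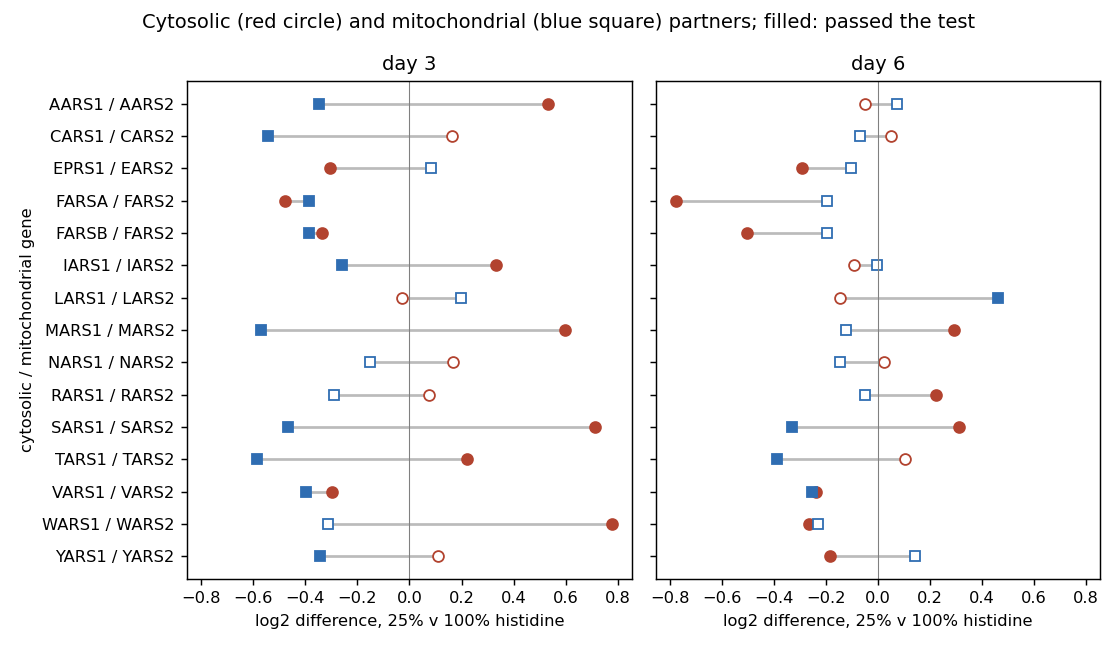
Log2 difference between 25% and 100% histidine of the cytosolic gene (red circle) and its mitochondrial partner (blue square) on day 3 and day 6, filled where the adjusted p in limma was under 0.05. On day 3 the circle lies right of the square in 12 of 15 pairs, and on day 6 in 7.

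Of the steps between neighbouring levels, that from 50% to 25% held the most calls of members. On day 3, 9 members were higher and 16 lower at 25% than at 50% (11.4% and 12.5% of all genes, 23.8% in all), and on day 6, 5 were higher and 13 lower (10.6% and 10.3%, 20.9% in all). Under total-sum scaling the share of calls that were higher rose from 47.71% to 63.99% of all called genes in the day 3 step, with the median of all genes moving from 0.01 to 0.11. Between 25% and 12.5%, 0 members passed on day 3 in limma, where 8.22% of all genes did (5.41% higher and 2.81% lower) and 4 members had an unadjusted p under 0.05. Other settings called between 0 and 4 cytosolic members in that step. On day 6, WARS1 alone passed from 25% to 12.5% (0.37, adjusted p = 0.0111), where 0.874% of all genes did. Without replicate 1 or 2 of 12.5% it did not pass (adjusted p = 0.0787 and 0.207), nor with the library number in the fit (0.177). In the steps from 50% to 25% that fit ended the calls of FARSB, NARS1, VARS1, AARS2, SARS2, VARS2 and YARS2 on day 3 and of AARS1, TARS1, VARS1, YARS1, SARS2, TARS2, VARS2 and AIMP1 on day 6.

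The effect of restriction differed between the days for part of the family. The test was the difference of the differences (day 6 minus day 3) in the same fit. At 25%, 3 members differed upwards and 8 downwards, beside 2.71% and 2.01% of all genes (4.72% in all, 57.46% of called genes upwards, 32.94% under total-sum scaling and 42.78% with quantile normalization), and at 12.5%, 0 and 7, beside 1.28% and 2.36% (3.64% in all). At 50% none of the 36 passed (2 at an unadjusted p under 0.05), while 0.00435% of all genes did. WARS1 differed most, by -1.04 at 25% (SE 0.10, limma adjusted p = 1.23e-07) and -0.73 at 12.5% (6.89e-05). AARS1 differed by -0.58 and -0.72, SARS1 by -0.40 and -0.60, IARS1 by -0.42 and -0.41 and MARS1 by -0.31 and -0.32. For AARS1 the mean normalized counts at 25% were 15840 on day 3 and 16248 on day 6, while those at 100% were 10957 and 16814. The differences between days of WARS1, AARS1 and SARS1 held in every alternative at both levels. IARS1 did so at 25%, but at 12.5% its adjusted p was 0.0626 without replicate 1 of 100% on day 3 and 0.0629 without replicate 1 of 12.5% on day 6. MARS1 did not pass without replicate 1 of 100% on day 3 (0.0534 at 25%, 0.0762 at 12.5%), nor, at 12.5%, without either day 6 library of that level (0.0574 and 0.0650), nor, at 25%, with the library number in the fit (0.0565). QARS1 and FARSA, the genes with the largest falls on day 6, had differences between days of -0.07 (SE 0.11, adjusted p = 0.851) and -0.37 (SE 0.12, 0.0783) at 12.5%.

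**Figure D5:**
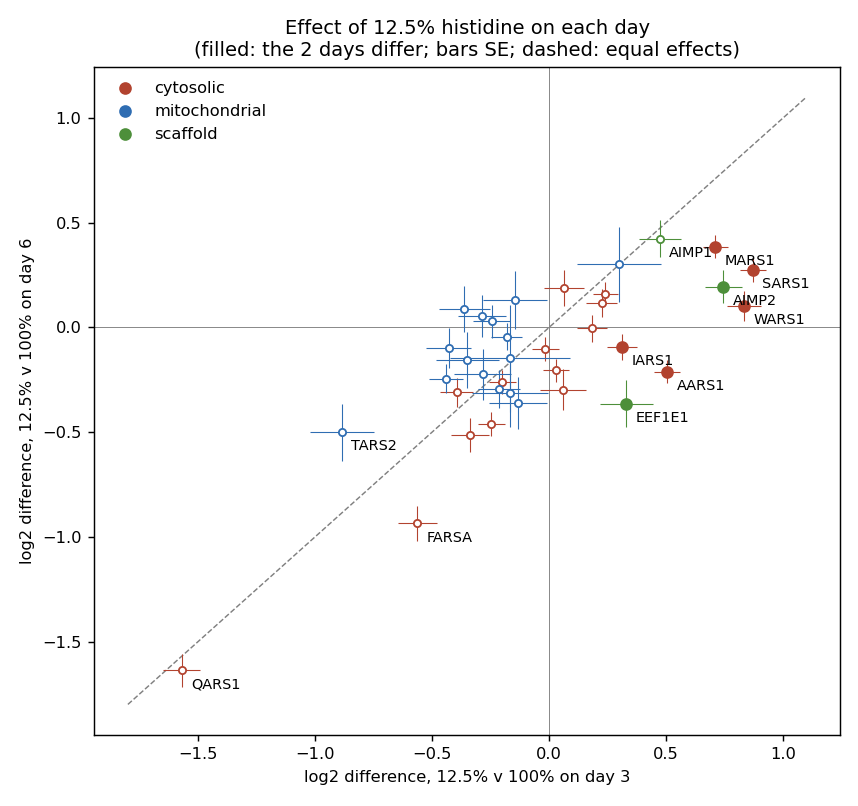
Log2 difference between 12.5% and 100% histidine on day 3 (horizontal) and day 6 (vertical) for the 36 members, with SE bars and a dashed line of equal effects. The 7 filled points, where the days differ in limma, all lie below the line, and QARS1 lies on it within its SE at -1.57 and -1.64.

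The libraries at 100% differed between the days as well. Compared with day 3, the libraries at 100% on day 6 were higher for AARS1, WARS1, EEF1E1 and SARS1 and lower for RARS1, VARS1, CARS2, IARS2, MARS2 and YARS2, 4 and 6 members beside 2.93% and 5.73% of all genes (8.66% in all). AARS1 held 10802 and 11112 normalized counts at 100% on day 3 and 17963, 16593 and 15886 on day 6, and its restricted day 3 libraries held 16396, 15516 and 15608 at 25%. The day 6 libraries at 100% thus lay above all day 3 libraries at 100% and overlapped those at 25%. The difference was 0.62 for AARS1 (SE 0.06, limma adjusted p = 1.82e-08), 0.49 for WARS1 and 0.29 for SARS1, and these 3 held in every alternative. TRIB3 and DDIT3, stress genes known as ATF4 targets, were also higher at 100% on day 6, by 1.53 and 1.82 (4383 against 12761 normalized counts for TRIB3, 326 against 1161 for DDIT3). Over all 25 targets other than synthetases, 7 were higher and 5 lower in this comparison, the ATF4 transcript was lower (-0.28, adjusted p = 0.000904) and ASNS did not pass (0.14). Their part in the synthetase values was not tested. Of the 10 calls, those of AARS1, SARS1 and WARS1 alone passed with the library number in the fit. The 4 mitochondrial calls were lost under total-sum scaling, which moved the median of all genes from 0.02 to 0.13 and the share of called genes that were higher from 33.8% to 69.95% (51.75% with quantile normalization). Without replicate 3 of 100% on day 3, 0 of the 4 passed. EEF1E1 was lost on leaving out each of the 5 libraries in turn, VARS1 without replicate 3 of day 3 (adjusted p = 0.104) and RARS1 without that library or replicate 1 or 3 of day 6 (0.418, 0.111 and 0.183).

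Other genes of tRNA charging are given for comparison by count. Of 20 such genes (the histidyl enzymes, amidotransferase subunits, elongation factors and others), 1 was higher and 6 lower at 25% on day 3, 5 and 3 at 0%, and 2 and 6 at 12.5% on day 6, with medians of -0.08, -0.01 and -0.21. HARS1, the cytosolic histidyl enzyme, was higher at 0% on day 3 (0.26, limma adjusted p = 0.00901) and on day 6 (0.21 and 0.24). HARS2 was lower at 25% and 12.5% on day 3 (-0.33 and -0.36). Of 21 genes of tRNA modification and processing, 1 was higher and 6 lower at 25% on day 3, 6 and 4 at 0%, and 2 and 5 at 12.5% on day 6 (medians -0.12, 0.04 and -0.18). For both lists the shares of all genes were 9.81% higher and 9.72% lower, 14.8% and 16.1%, and 10.8% and 11.1% in these comparisons.

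Among 25 known ATF4 targets other than synthetases, 10 were higher and 5 lower at 25% on day 3, 14 and 5 at 12.5%, and 12 and 6 at 0% (medians 0.10, 0.28 and 0.09). Of all genes, 9.81% were called higher and 9.72% lower at 25%, 14.2% and 12% at 12.5%, and 14.8% and 16.1% at 0%. On day 6, 6 were higher and 8 lower at 25%, and 8 and 8 at 12.5% (median -0.10 at 12.5%). The shares of all genes were 11% and 9.24% at 25% and 10.8% and 11.1% at 12.5%. TRIB3, a pseudokinase, rose by 2.26, 2.60 and 2.68 on day 3 and by 0.34 and 0.45 on day 6. ASNS, asparagine synthetase, did not pass on day 3 (0.10, -0.02 and -0.09) and was lower on day 6 (-0.61 and -0.40). The ATF4 transcript itself was lower at 25% on day 3 (-0.32) and on day 6 (-0.21), and higher at 0% on day 3 (0.21). Of these 25 targets, 0 differed upwards and 9 downwards between the days at 12.5%, beside 1.28% and 2.36% of all genes.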

How the data were processed

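RNA was extracted from Jurkat cells and strand-specific libraries were made from total RNA by a service provider, per the labels' protocols. The submitters' processing notes name FastQC 0.11.9, kallisto 0.50.1, DESeq2 1.44.0 and the GRCh38 build, with no role for each. What annotation was used, and whether counting used strand, is not given in the sources used here. As deposited, the signal is a table of counts normalized between libraries by the authors. Among low values, 55.62% to 75.41% per library were whole multiples (within 0.05) of a unit fitted to that library. Since the values were already normalized, no count model was used, and the depth is unknown. Fold changes on the log2(value + 1) scale understate the change of low genes.

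The 22994 genes that reached 10 in 2 or more libraries were tested with limma 3.58.1 (R 4.3.3, statmod 1.5.0) on log2(value + 1), with 1 mean per day and histidine group over all 25 libraries, trend and robust moderation, and Benjamini-Hochberg adjustment within each of 16 comparisons. A call is an adjusted p under 0.05. The scripts were tested on simulated data. Replicate 2 of 100% on day 3 and replicate 3 of 12.5% on day 6 were not analysed here. Some single genes of the comparison lists are not reported here. Genes given in every library are FARSA, FARSB, MARS1, QARS1, SARS1, WARS1, PARS2, TARS2 and the 3 scaffold genes, and others are given by difference or range. VARS1, NARS1, LARS1, CARS2 and AARS1 were given by library, and the overlapping genes, the multisynthetase and catalytic class groupings chosen, after their values were seen. The members and lists were chosen with earlier results of these data known. Promoter windows are from RefSeq (GRCh38.p14), gene overlaps and lengths from GENCODE 29. Overlaps are of whole gene spans with introns, so shared bases need not lie in the mature transcripts. Alternatives were other pseudocounts (0.5 and 10), no filter, total-sum and quantile scaling, no trend or robust moderation, the compared groups alone, the library number (modulo 8), a replicate block, and each library left out in turn. Leaving out 3 day 6 libraries was added after seeing the data.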

Additional observations from a re-analysis of the deposited data

Results flagged for a closer look

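For 18 results the effect of restriction differed between the days (day 6 difference minus day 3 difference in log2, limma with Benjamini-Hochberg adjustment over all genes). At 25% histidine, 8 genes had a lower effect on day 6. These were WARS1 (-1.04, SE 0.10, adjusted p = 1.23e-07), AARS1 (-0.58, 1.24e-05), EEF1E1 (-0.58, 0.0233), AIMP2 (-0.45, 0.0132), IARS1 (-0.42, 0.00292), SARS1 (-0.40, 0.00136), MARS1 (-0.31, 0.0106) and YARS1 (-0.29, 0.0172). The mitochondrial genes YARS2 (0.48, 0.0379), MARS2 (0.45, 0.0422) and AARS2 (0.42, 0.0187) had a higher one. At 12.5%, 7 genes had a lower effect on day 6: WARS1 (-0.73, 6.89e-05), AARS1 (-0.72, 1.49e-06), EEF1E1 (-0.69, 0.0122), SARS1 (-0.60, 2.78e-05), AIMP2 (-0.55, 0.00548), IARS1 (-0.41, 0.00966) and MARS1 (-0.32, 0.0138).

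The values of AARS1, SARS1 and WARS1 at both levels and of IARS1 at 25% passed in all alternatives. The 3 mitochondrial values passed in none of the fits with only the groups compared, the library number, total-sum scaling, or without the 3 day 6 libraries that stood apart. Single libraries also ended calls. At 12.5%, AIMP2 was lost without replicate 1 of 100% on day 3 or replicate 1 of 12.5% on day 6 (adjusted p = 0.0625 and 0.0509), and EEF1E1 without replicate 3 of 100% on day 3 or replicate 1 of 12.5% on day 6 (0.0575 and 0.0858). At 25%, AIMP2 and YARS1 were lost without replicate 1 of 100% on day 3 (0.114 and 0.148), YARS1 also without replicate 1 of 25% on day 3 (0.0613), and EEF1E1 without replicate 3 of 100% on day 3, replicate 1 or 3 of 25% on day 3, replicate 2 of 100% on day 6 or replicate 3 of 25% on day 6 (adjusted p = 0.0513 to 0.126). AARS2 was lost without replicate 1 of 100% on day 3, replicate 3 of 25% on day 3, replicate 1 of 100% on day 6 or replicate 2 of 25% on day 6 (adjusted p = 0.0506 to 0.1), MARS2 without replicate 1 or 3 of 100% on day 3, replicate 2 of 25% on day 3, replicate 1, 2 or 3 of 100% on day 6 or replicate 1 or 3 of 25% on day 6 (adjusted p = 0.0503 to 0.206) and YARS2 without replicate 1 or 3 of 100% on day 3, replicate 1, 2 or 3 of 25% on day 3, replicate 1, 2 or 3 of 100% on day 6 or replicate 2 or 3 of 25% on day 6 (adjusted p = 0.0505 to 0.156). WARS1 at 25% is a rise on day 3 (0.78) and a fall on day 6 (-0.26), and EEF1E1 at 12.5% is 0.33 and -0.36.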

How the results depend on the processing

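No difference of a member reversed its sign in a call under any alternative run. Of the 576 member results per setting, the term for the library number ended 65 calls and added 2, the compared groups alone ended 31 and added 1, no moderation 24 and 1, leaving out 3 day 6 libraries 15 and 7, no filter 14 and 1, quantile normalization 12 and 24, total-sum scaling 12 and 20, and the replicate block 8 and 10. A pseudocount of 0.5 ended 0 and added 1, and a pseudocount of 10 changed none. With the library number (modulo 8) in the fit, the mitochondrial genes called numbered 3 at 25%, 4 at 12.5% and 2 at 0% on day 3, 2 at 25% on day 6, 1 between 0% and 12.5%, 1 between 25% and 50% on day 6, 0 between the days at 100% and 0 in the test between the days at 25%. The cytosolic genes numbered 9 at 0%, 4 between 0% and 12.5%, 0 between 12.5% and 25% on day 6 and 3 between the days at 100%. With the compared groups alone, 4 (12.5%), 3 (0%) and 0 (between days at 25%) mitochondrial genes were called. Without the filter they were 4 and 1 at 12.5% and between days at 25%, and without moderation 2 at 25% on day 6. Without moderation the cytosolic genes that differed between days at 12.5% were 3. Total-sum scaling, and leaving out the 3 libraries, left 0 mitochondrial genes between days at 25%, and at 100% they left 0 and 2. Between 12.5% and 25% on day 3, where none was called, 1 cytosolic gene passed with a pseudocount of 0.5, no filter, the compared groups alone or without the 3 libraries, 2 with total-sum scaling and 4 with quantile normalization, and 1 mitochondrial gene with total-sum scaling. On day 6 the same step gave 2 with quantile normalization and 0 without moderation or with the compared groups alone, against 1. The cause was not tested.

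Leaving out each library in turn gave 8 to 12 cytosolic calls at 25%, 11 to 14 at 12.5% and 12 to 14 at 0% on day 3, and 9 to 11 and 8 to 12 at 25% and 12.5% on day 6. The mitochondrial calls were 4 to 9, 3 to 5 and 2 to 6 on day 3 and 1 to 3 and 0 to 3 on day 6. Between neighbouring levels on day 3 the cytosolic calls were 12 to 14 (50% to 25%), 0 to 1 (25% to 12.5%) and 6 to 7 (12.5% to 0%), and on day 6 they were 9 to 12 and 0 to 1. The mitochondrial ones were 10 to 11, 0 and 1 to 3 on day 3 and 2 to 5 and 0 on day 6. Between the days at 100% they were 3 to 6 cytosolic and 0 to 4 mitochondrial, and in the tests between days 4 to 7 and 3 to 7 cytosolic and 0 to 2 and 0 mitochondrial.

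The main fit did not pair libraries by replicate number. The deviations of same-numbered libraries correlated by -0.0389 to 0.0295 on day 3 (26 pairs) and by -0.0525 to 0.192 on day 6 (15 pairs, 1 over 0.1). With the replicate block, 1 cytosolic and 1 mitochondrial gene passed between 12.5% and 25% on day 3, 2 cytosolic genes passed in the same step of day 6, and 2 mitochondrial genes differed between the days at 100%. With groups of 2 or 3 libraries and no read counts, small differences of the lower mitochondrial genes may go undetected.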
